A study of Mus musculus with 6 samples.

Results

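Thioredoxin, glutathione and Nrf2 antioxidant genes were followed in RNA-seq libraries of mouse B cells with and without the protein arginine methyltransferase Prmt1. The 41 genes were selected by symbol, as members of these pathways and with earlier results of these data known, from the 39017 genes of the count table, and all 41 were found there and had enough reads to be tested among 18268 genes. They were described in 5 branches, with 13 genes of the thioredoxin and peroxiredoxin system, 12 of the glutathione system, 5 that supply NADPH, 5 for superoxide dismutases, catalase, the quinone reductase Nqo1 and Osgin1, and 6 regulators. The measurements came from induced germinal center B cells (iGBs), which are splenic B cells grown on 40LB feeder fibroblasts that display CD40L and secrete BAFF, here with IL-4 for 3.5 days.

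Control iGBs were from 3 C57BL6/J mice of the genotype Cg1-cre, and Prmt1-null iGBs from 3 C57BL6/J mice of the genotype Cg1-cre Prmt1f/f. Both groups therefore carried the Cre recombinase, which is driven from the Ighg1 locus and acts once B cells are activated, and the groups differed in the floxed Prmt1 allele. Each mouse gave 1 library, and each group held 2 females and 1 male (Control replicate 1 and Prmt1-null replicate 3). The labels give no age. IL-4 was at 5 ng/ml according to the labels, whereas the study's methods state a lower concentration. A change in the level per cell and a change in the share of cells of some kind cannot be told apart in these bulk samples, from which the feeder cells had been depleted with magnetic beads.

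The thioredoxin and glutathione systems carry electrons from NADPH to oxidized proteins and to peroxides. Thioredoxin reductases reload thioredoxins, which reload peroxiredoxins, and glutathione reductase reloads the glutathione used by glutathione peroxidases and glutaredoxins. The transcription factor Nrf2 (encoded by Nfe2l2) is held in check by Keap1 and, when released, binds antioxidant response elements together with small Maf proteins, at sites that Bach1 can occupy as a repressor. In B cells these systems are known to be induced on the way to antibody secretion, when oxidative protein folding increases.

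Counts were deposited without normalization and were scaled for library size and composition by the TMM method of edgeR. Totals ran from 45343250 to 62774232 counts per library, and the lowest amount taken as detected, 3 counts, corresponded to 0.0478 to 0.0662 CPM (the count scaled to a common library total). These floors cover counting error only, whereas the 95% intervals of log2 fold changes come from the fit across libraries and include the spread between mice. A gene was called when its adjusted p in edgeR's quasi-likelihood test (Benjamini-Hochberg over all 18268 genes) was under 0.05 and its mean normalized count was over 100. Prmt1 itself was at 3964, 3924 and 4838 normalized counts in Control and at 1745, 1478 and 1477 in Prmt1-null iGBs, a log2 fold change of −1.44 (SE, the standard error, 0.095, adjusted p = 1.11e-05 by edgeR). The B cell markers summed to 11600 to 13200 CPM in Control and 12900 to 13400 CPM in Prmt1-null libraries.

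Sequence context is given for members whose promoters hold an antioxidant response element core. The core was searched as TGACNNNGC on both strands in the RefSeq promoter windows of GRCm38.p6, which run from 250 bases before to 50 bases after a start site. Of the 41 members, 36 had a window in the table. The core was found for 11 of these 36 (30.6%), against 14.0% of all 27025 genes with a window and 12.4% of all windows. The stricter letters TGACTCAGC, which are contained in the core pattern, were found for 2 members, against 0.503% of all genes. The windows are shown 5′ to 3′ on the strand of the gene, with the core in capitals, for the called member Txnrd1, for Gclm and G6pdx as examples from other branches, and for the peroxiredoxin Prdx1 and the malic enzyme Me1, which hold the stricter letters (on the opposite strand in Prdx1). The Txnrd1 element lies at an internal start of the gene (chr10:82859094-82859142), that of Prdx1 at chr4:116685446-116685494, that of Gclm at chr3:122245403-122245451, that of G6pdx at chrX:74428909-74428957 and that of Me1 at chr9:86695892-86695940. Txnrd1, Prdx1 and Gclm are encoded on the plus strand and G6pdx and Me1 on the minus strand. Only the capitals of Me1 read as the core itself. Those of Txnrd1, Prdx1, Gclm and G6pdx are its reverse complement, because the core lies on the opposite strand.
Txnrd1: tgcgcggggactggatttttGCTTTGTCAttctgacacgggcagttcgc
Prdx1: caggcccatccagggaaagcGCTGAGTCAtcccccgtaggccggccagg
Gclm: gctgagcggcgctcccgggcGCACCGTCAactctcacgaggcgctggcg
G6pdx: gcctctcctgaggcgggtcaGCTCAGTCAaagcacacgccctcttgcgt
Me1: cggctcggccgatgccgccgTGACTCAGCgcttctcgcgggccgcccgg

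The other members with the core were Srxn1, Pgd, Sod1, Nfe2l2, Mafg and Mafk. Each match describes letters in a window and not a bound site. The 11 members with the core had a median log2 fold change of 0.21, and 10 of them were higher in Prmt1-null iGBs. The 25 members without it had a median of 0.15, and 20 of them were higher. An unadjusted p under 0.05 by edgeR was found for 4 of the 11 and 8 of the 25. A missing match says nothing about elements outside the window, and Nqo1, Slc7a11 and Osgin1 were among the 25. Abcc1, Gsr, Gclc, Prdx6 and Gsta4 had no entry.

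The members covered a wide range of levels in Control iGBs. On the scale of CPM per kb of exon, which allows genes to be compared, Txnip stood highest at 229, followed by Cat (90.2), Gpx1 (80.9), Prdx1 (72.3), Prdx3 (47.0), Sqstm1 (36.0) and Tkt (32.4). At the other end were Me1 (0.0557), Srxn1 (0.0853), Osgin1 (0.187), Gsta4 (0.193), Txnrd3 (0.27) and Nqo1 (0.445 CPM per kb), and these 6 were the members with a mean normalized count at or under 100, below the limit for a call in the comparison of all 6 libraries. Without that limit the same count of 2 members was called. Genes known as Nrf2 targets lay at both ends, with Prdx1, Sqstm1 and Gclm (14.8 CPM per kb) among the abundant members and Srxn1, Nqo1 and Osgin1 among the scarce ones. Exons of 13 members overlap those of another gene, and 11 members share more than 10% of their stretches of 50 bases with another gene. Counts of these genes are uncertain, because the strand setting of the counting is not given in the sources used here and near-identical copies can divide reads. The uncertain genes include Gpx4 (34.7% shared), Me1 (28.3%), Sod2 (21.0%), Txnip (15.7%) and Sqstm1 (15.5%), of which Me1, Txnip and Sqstm1 also overlap a gene on the opposite strand, as does Keap1. In neither group are 24 members, Txnrd1, Prdx6, Prdx1, Gsr, Cat, Nqo1 and Nfe2l2 among them.

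**Figure D1:**
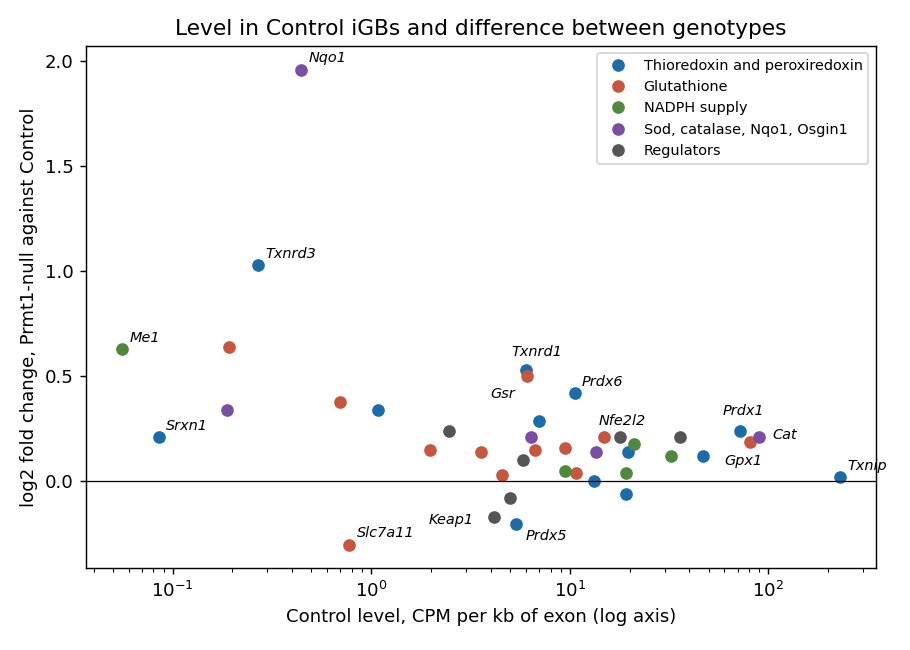
Level of each of the 41 genes in Control iGBs (x axis, CPM per kb of exon, log scale) against its log2 fold change between Prmt1-null and Control iGBs (y axis), with 1 point per gene coloured by branch. The abundant genes on the right lie close to 0 or slightly above it, with Txnip at 0.02, and the largest values, Nqo1 at 1.96 and Txnrd3 at 1.03, belong to genes with few reads.

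Most differences between the genotypes were small and had the same sign. A fitted difference over 1.4-fold was found for 6 of the 41 members, against 2584 of the 18268 genes tested. Of the 41 members, 36 were higher in Prmt1-null iGBs. Their median log2 fold change was 0.18, whereas 49.9% of all genes tested were higher and their median was −0.001. The number of higher members was 35 with limma-voom, with total counts in place of TMM, with the replicate block and with GC content and length trends removed, and it was 33 in the females alone and 33 to 36 with 1 library left out. Txnrd1 and Prdx6 were called, both higher, so that 2 of 41 members passed the threshold, against 1.18% of all genes (0.58% in the higher and 0.602% in the lower direction). At an unadjusted p under 0.05 there were 13 members higher and 1 lower, against 6.5% and 7.0% of all genes. The 3 Prmt1-null libraries lay above all 3 Control libraries for 15 members and below them for 2, against 9.95% and 9.92% of all genes, so that 17 members and 19.9% of all genes did not overlap. DESeq2, the tool of the study, here in a later version with the Wald test and no prior, called 7 members, namely Txnrd1, Prdx6, Prdx1, Gsr, Cat, Nfe2l2 and Sqstm1, all higher, among 720 genes in all. Across the fits that each left out 1 library, the count of called members ran from 2 to 5, and the 5 were Txnrd1, Prdx6, Gpx1, Sod2 and Nqo1, called without Control replicate 3.

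**Figure D2:**
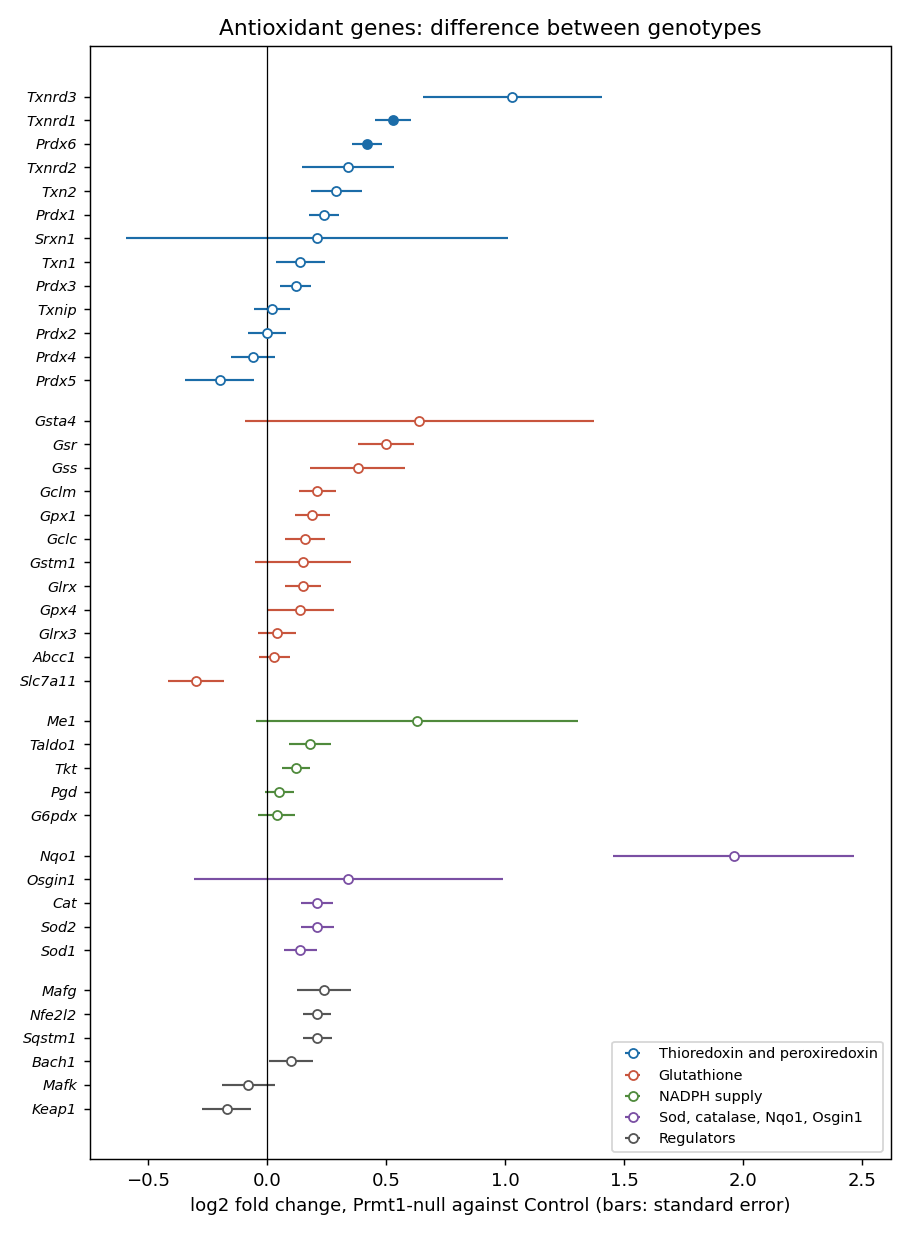
Log2 fold change between Prmt1-null and Control iGBs for the 41 genes (x axis), ordered by size within each branch, with bars for the standard error and filled points for the 2 called genes, Txnrd1 at 0.53 and Prdx6 at 0.42. Points lie to the right of 0 for 36 genes, and the long bars belong to genes with few reads such as Srxn1 and Gsta4.

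In the thioredoxin branch, the cytosolic thioredoxin reductase Txnrd1 (ENSMUSG00000020250, chromosome 10 of mm10, 82833951 to 82897712) had 2214, 2629 and 2260 normalized counts in Control and 3424, 3502 and 3349 in Prmt1-null iGBs. Every Prmt1-null library lay above every Control library. The means were 2367 ± 227 (SD, n = 3) and 3425 ± 76.5 (SD, n = 3). Txnrd1 rose 1.45-fold, a log2 fold change of 0.53 (SE 0.076, 95% interval 0.37 to 0.70, adjusted p = 0.00498 by edgeR). Its adjusted p was between 1.54e-08 and 0.0299 over the alternatives with other settings and between 0.00681 and 0.0496 with 1 library left out.

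Prdx6 (ENSMUSG00000026701, chromosome 1, 161240112 to 161251219), the peroxiredoxin with a single catalytic cysteine that is reduced by glutathione, had 2739, 2852 and 2860 normalized counts in Control and 3721, 3728 and 3859 in Prmt1-null iGBs. The spread within each group was small beside the gap between them. The means were 2817 ± 67.9 (SD, n = 3) and 3769 ± 77.5 (SD, n = 3). Prdx6 rose 1.34-fold, a log2 fold change of 0.42 (SE 0.062, 95% interval 0.29 to 0.55, adjusted p = 0.00562 by edgeR, 5.96e-07 to 0.0478 over all alternatives).

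Prdx1, an abundant cytosolic peroxiredoxin that thioredoxin reduces, had 13050, 11730 and 11810 normalized counts in Control and 13800, 14710 and 14610 in Prmt1-null iGBs. The groups did not overlap, but the lowest Prmt1-null value was close to the highest Control value. The means were 12190 ± 738 and 14380 ± 500 (SD, n = 3 each). The log2 fold change of 0.24 (SE 0.063, adjusted p = 0.0933 by edgeR) did not pass the threshold, and the adjusted p was between 0.0103 and 0.157 over the alternatives with other settings and between 0.0449 and 0.332 with 1 library left out.

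The other peroxiredoxins had values on either side of 0. The mitochondrial Prdx3 had a log2 fold change of 0.12 (95% interval −0.01 to 0.26), Prdx2 of 0.00 (−0.17 to 0.17), the endoplasmic reticulum enzyme Prdx4 of −0.06 (−0.26 to 0.14) and Prdx5 of −0.20 (−0.51 to 0.11). The sign of Prdx2 turned with total counts, with GC content and length trends removed and in the females alone, that of Prdx4 with some single libraries left out, and Prdx2 and Prdx5 overlap other genes. Prdx4 acts in oxidative folding in the secretory pathway, and its Prmt1-null values of 1966 to 2313 normalized counts lay within or just below the Control values of 2010 to 2491.

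The mitochondrial thioredoxin Txn2 was at 1820, 1355 and 1743 normalized counts in Control and at 2118, 1948 and 1953 in Prmt1-null iGBs, without overlap, with a log2 fold change of 0.29 (SE 0.107, adjusted p = 0.226 by edgeR). The cytosolic thioredoxin Txn1 overlapped between the groups, with a log2 fold change of 0.14 (95% interval −0.08 to 0.36). Txnip, which binds thioredoxin and restrains it, was at 35610 to 43880 normalized counts in Control and at 39130 to 40820 in Prmt1-null iGBs. Its log2 fold change was 0.02 (95% interval −0.14 to 0.18) and its sign turned in the females alone. The mitochondrial reductase Txnrd2 had a log2 fold change of 0.34 (95% interval −0.07 to 0.76) with overlapping groups.

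Txnrd3, a reductase best known from testis, had 22, 42 and 58 raw counts in Control and 103, 89 and 80 in Prmt1-null iGBs, which did not overlap after normalization. Its log2 fold change was 1.03 (SE 0.376, adjusted p = 0.225 by edgeR). Srxn1, the sulfiredoxin that repairs overoxidized peroxiredoxins, had between 3 and 32 raw counts in all 6 libraries, and its interval of −1.51 to 1.93 leaves its difference undetermined at this depth. Among the 13 genes of the branch, 11 had a positive log2 fold change (Prdx2 among them with 0.00), the median was 0.21 and 2 were called.

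**Figure D3:**
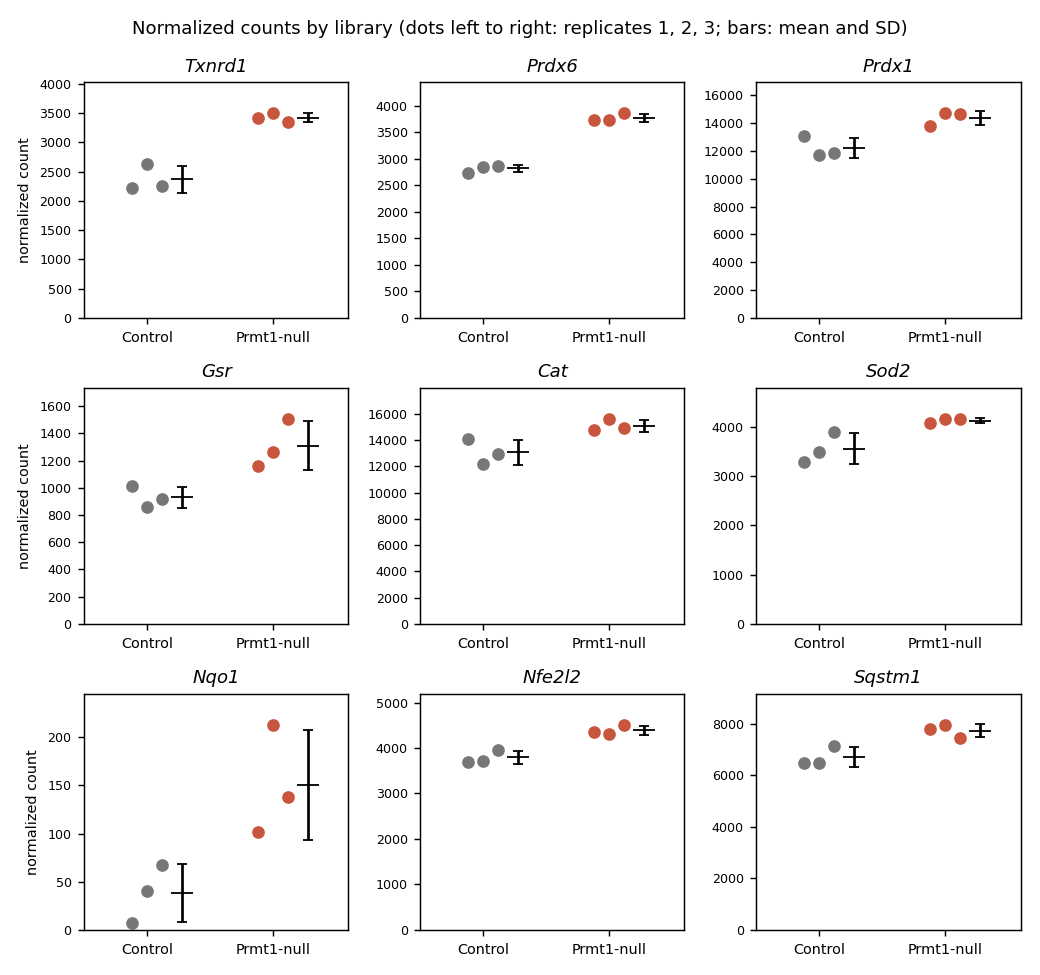
Normalized counts of 9 members in each library (y axis, from 0), with Control in grey and Prmt1-null in red, 1 dot per mouse and the mean with SD beside the dots. The groups are separate for all 9 genes, by a wide gap for Txnrd1 and Prdx6 and by a narrow one for Cat and Sod2, and Nqo1 is spread within both groups.

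In the glutathione branch no gene was called by edgeR, and 4 of the 12 had an unadjusted p under 0.05. Gsr, the reductase that returns oxidized glutathione to its reduced form, had 1011, 858.6 and 917.8 normalized counts in Control and 1157, 1267 and 1506 in Prmt1-null iGBs. All Prmt1-null values were above all Control values, and the Prmt1-null libraries were more spread. The means were 929.1 ± 76.7 and 1310 ± 178 (SD, n = 3 each), a log2 fold change of 0.50 (SE 0.118) that missed the threshold with an adjusted p of 0.059 by edgeR. It was called with DESeq2 (adjusted p = 0.00252), limma-voom (0.0468), sex as a covariate (0.0231) and no filter on low counts (0.00142), and the highest adjusted p was 0.126 over the other settings and 0.225 with 1 library left out.

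Glutamate-cysteine ligase makes the first product of glutathione synthesis from a catalytic subunit, Gclc, and a modifier subunit, Gclm. Gclm had 4678, 5522 and 5274 normalized counts in Control and 5508, 6612 and 5820 in Prmt1-null iGBs. The lowest Prmt1-null library fell just under the highest Control library. Its log2 fold change was 0.21 (SE 0.078, adjusted p = 0.23 by edgeR). Gclc had a log2 fold change of 0.16 (95% interval −0.02 to 0.34) without overlap of the groups. Gss, the enzyme of the second step, had a log2 fold change of 0.38 (−0.05 to 0.80) and overlaps other genes.

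The peroxidase Gpx1 had 5923, 6259 and 7203 normalized counts in Control and 7535, 7633 and 6940 in Prmt1-null iGBs. Prmt1-null replicate 3 lay below Control replicate 3. The log2 fold change was 0.19 (SE 0.074, adjusted p = 0.262 by edgeR), and the adjusted p fell to 0.0497 without Control replicate 3. The lipid peroxidase Gpx4 (0.14, 95% interval −0.16 to 0.44), the glutaredoxins Glrx (0.15, −0.01 to 0.31) and Glrx3 (0.04, −0.13 to 0.21), the transferases Gstm1 (0.15, −0.29 to 0.58) and Gsta4 (0.64, −0.94 to 2.22) and the exporter Abcc1 (0.03, −0.11 to 0.17) had intervals of the log2 fold change that included 0.

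Slc7a11, the cystine carrier of the xCT antiporter and a classical Nrf2 target, was the only member of the branch with a negative value. It had 631.8, 575.9 and 592.8 normalized counts in Control and 486, 492.3 and 484.9 in Prmt1-null iGBs. The Prmt1-null libraries lay close together and below all Control libraries. The log2 fold change was −0.30 (SE 0.117, adjusted p = 0.264 by edgeR, 0.181 to 0.545 over the alternatives), so the call was not made. Its partner chain Slc3a2, which also serves other amino acid carriers, is described with the related genes.

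NADPH supply had no called gene and no gene with an unadjusted p under 0.05. All 5 values were positive, with a median of 0.12. The transketolase Tkt had 12770, 13610 and 13280 normalized counts in Control and 14380, 13960 and 14750 in Prmt1-null iGBs, without overlap. Its log2 fold change was 0.12 (SE 0.058, adjusted p = 0.399 by edgeR). Transaldolase, Taldo1, had 2295, 2493 and 2823 normalized counts in Control and 2602, 3036 and 2972 in Prmt1-null iGBs. One Prmt1-null library lay among the Control libraries, and the log2 fold change was 0.18 (SE 0.088, adjusted p = 0.406 by edgeR). The 2 dehydrogenases of the pentose phosphate pathway, G6pdx and Pgd, had log2 fold changes of 0.04 (95% interval −0.13 to 0.20, with a turned sign in the females alone) and 0.05 (−0.08 to 0.19). For these abundant genes a change of more than about 0.2 on the log2 scale lies outside the interval. The malic enzyme Me1 had 8, 22 and 6 raw counts in Control and 22, 14 and 22 in Prmt1-null iGBs, too few for its log2 fold change of 0.63 (−0.83 to 2.08) to be told from 0.

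Of the enzymes that act on superoxide, hydrogen peroxide and quinones, Nqo1 (ENSMUSG00000003849, chromosome 8, 107388225 to 107403206) had the largest fitted difference of all 41 members. It had 6, 46 and 61 raw counts in Control and 100, 231 and 146 in Prmt1-null iGBs, which correspond to 7.29, 40.39 and 67.21 and to 101.3, 212.9 and 138.0 normalized counts. Control replicate 1 was far below the other Control libraries, and the groups did not overlap. The means were 38.3 ± 30.0 and 150.7 ± 56.9 (SD, n = 3 each), a log2 fold change of 1.96 (SE 0.506, 95% interval 0.87 to 3.05, adjusted p = 0.0846 by edgeR). Without Control replicate 1 the log2 fold change was 1.5 (adjusted p = 0.079), and without Control replicate 3 it was 2.59 (adjusted p = 0.021). In the females alone it was 1.56 (adjusted p = 0.135). With DESeq2 and a zero-centred prior on fold changes it was 0.14, and the adjusted p ranged from 6.17e-07 to 0.229 over the alternatives with other settings and from 0.021 to 0.365 with 1 library left out, the highest without Prmt1-null replicate 2. The 2 male libraries held 7.29 (Control) and 138.0 (Prmt1-null) normalized counts.

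Catalase and the mitochondrial superoxide dismutase were abundant and differed little. Cat had 14080, 12190 and 12960 normalized counts in Control and 14770, 15620 and 14930 in Prmt1-null iGBs, and Sod2 had 3293, 3483 and 3896 against 4071, 4159 and 4151. Neither gene overlapped between the groups. Both log2 fold changes were 0.21 (SE of 0.066 and 0.069, adjusted p = 0.158 and 0.167 by edgeR), and DESeq2 gave adjusted p of 0.0418 and 0.0859. The copper and zinc enzyme Sod1 had a log2 fold change of 0.14 (95% interval −0.01 to 0.30). Osgin1, another Nrf2 target, had 4, 54 and 28 raw counts in Control and 26, 54 and 32 in Prmt1-null iGBs and could not be told from 0 (log2 fold change 0.34, 95% interval −1.06 to 1.73, with a turned sign in the females alone).

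Among the regulators, Nfe2l2 itself had 3696, 3723 and 3959 normalized counts in Control and 4354, 4299 and 4507 in Prmt1-null iGBs. The groups did not overlap. The means were 3792 ± 145 and 4386 ± 108 (SD, n = 3 each), a log2 fold change of 0.21 (SE 0.06, 95% interval 0.08 to 0.34). Its adjusted p was 0.114 by edgeR and 0.0461 by DESeq2, with 0.393 as the highest of its alternatives.

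Sqstm1, the autophagy receptor p62 that binds Keap1, had 6460, 6495 and 7143 normalized counts in Control and 7805, 7956 and 7441 in Prmt1-null iGBs. The groups did not overlap, and its log2 fold change was also 0.21 (SE 0.061, adjusted p = 0.13 by edgeR and 0.0425 by DESeq2). The small Maf gene Mafg had 693.8, 763.8 and 849.5 normalized counts in Control and 958.8, 884.0 and 887.6 in Prmt1-null iGBs, again without overlap, with a log2 fold change of 0.24 (SE 0.113, adjusted p = 0.371 by edgeR). A second record under the symbol Mafg, with an identifier absent from the annotation used here, had a log2 fold change of −0.09 (95% interval −0.73 to 0.56) and was not counted among the members.

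Keap1, the inhibitor, had 1087, 1041 and 1112 normalized counts in Control and 921.4, 926.4 and 1039 in Prmt1-null iGBs. All Prmt1-null values were below all Control values, the highest of them by very little. The log2 fold change was −0.17 (SE 0.102, adjusted p = 0.517 by edgeR). The repressor Bach1 (0.10, 95% interval −0.11 to 0.30) and Mafk (−0.08, −0.32 to 0.16) had log2 fold changes that could not be told from 0, and that of Mafk turned to 0.03 in the females alone.

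**Figure D4:**
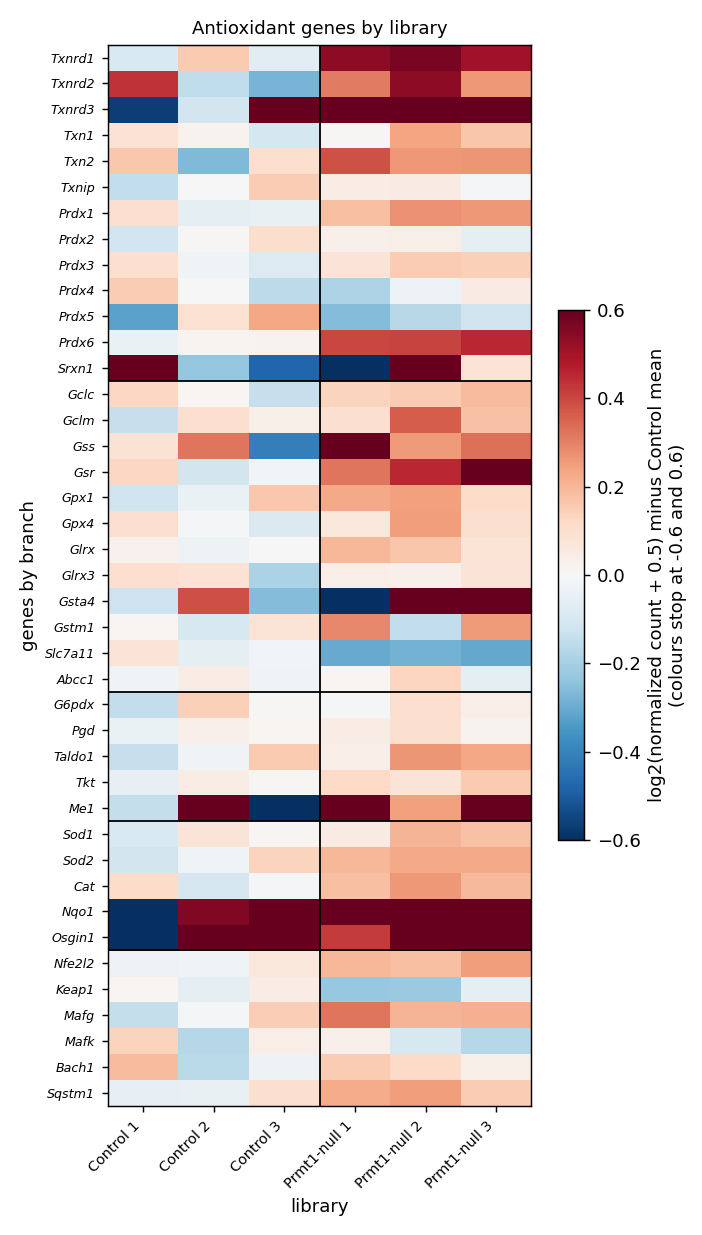
Log2 of the normalized count plus 0.5, minus the Control mean, for each of the 41 genes (rows, by branch) in each of the 6 libraries (columns), with red for higher and blue for lower values and colours that stop at −0.6 and 0.6. The 3 Prmt1-null columns are mostly light red, Slc7a11 and Keap1 are blue in all 3, and rows of strong mixed colours such as Srxn1 and Gsta4 are genes with few reads.

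By library, the median deviation of the 41 members from their Control means was −0.036, −0.005 and 0.008 in Control and 0.135, 0.229 and 0.177 in Prmt1-null iGBs on the log2 scale. The branch medians of the log2 fold changes were 0.21 for thioredoxin, 0.15 for glutathione, 0.12 for NADPH supply, 0.21 for the superoxide, peroxide and quinone genes and 0.15 for regulators. The medians of the Prmt1-null libraries were above those of all Control libraries in 4 branches. In the thioredoxin branch Prmt1-null replicate 1 (0.080) was below Control replicate 1 (0.086). In the males alone, 31 of the 41 members were higher in the Prmt1-null library and 10 were lower.

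Related genes outside the 41 were read from lists. Of 23 other Nrf2 targets and partners tested, 14 were higher, with a median log2 fold change of 0.013. Of them 2 were called, both higher, against 1.18% of all genes. At an unadjusted p under 0.05 by edgeR there were 2 higher and 3 lower genes, 21.7% of the list against 13.5% of all genes. The same numbers did not overlap between the groups, against 19.9% of all genes. The 3 lower genes were the exporter Abcc4 (log2 fold change −0.35, adjusted p = 0.115 by edgeR), the repressor Bach2 (−0.22, adjusted p = 0.124) and the kinase Gsk3b (−0.20, adjusted p = 0.181), none of them called. The called genes were Hmox1, the heme oxygenase, with 634.2, 516.2 and 502.4 normalized counts in Control and 979.1, 1396 and 1126 in Prmt1-null iGBs, and Ftl1, the ferritin light chain, with 16530, 16260 and 18850 against 22970, 25600 and 23200. Neither overlapped between the groups. On the log2 scale Hmox1 rose by 1.08 (SE 0.144, adjusted p = 0.00368 by edgeR, at most 0.0374 with 1 library left out). Ftl1 rose by 0.48 (SE 0.073, adjusted p = 0.00678 by edgeR), with an adjusted p of 0.0609 without Control replicate 2 and 0.0675 without Prmt1-null replicate 2. Both genes are repressed by Bach1 as well as activated by Nrf2, and both serve the handling of heme and iron.

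Of 27 other glutathione genes tested, 19 were higher, with a median of 0.17, and 2 were called, against 1.18% of all genes. At an unadjusted p under 0.05 by edgeR, 6 were higher and 1 was lower, 25.9% of the list against 13.5% of all genes. The lower gene was Mgst2 (log2 fold change −0.63, adjusted p = 0.215 by edgeR). Chac1, which degrades glutathione and is induced by the amino acid stress factor ATF4, had 744.8, 699.7 and 705.2 normalized counts in Control and 1013, 1080 and 1340 in Prmt1-null iGBs. On the log2 scale it rose by 0.68 (SE 0.121, adjusted p = 0.0173 by edgeR), with up to 0.096 when a library was left out and 0.0676 in the females alone. Slc3a2, the heavy chain that pairs with Slc7a11 and with other amino acid carriers, had 5771, 5794 and 5657 normalized counts in Control and 6532, 7109 and 6934 in Prmt1-null iGBs, a log2 fold change of 0.26 (SE 0.057, adjusted p = 0.0456 by edgeR). This call was lost with limma-voom (0.0515), total counts (0.0648), the replicate block (0.0759), sex as a covariate (0.0526), GC content and length trends removed (0.0548) and the females alone (0.159), and with any single library left out (0.0617 to 0.24).

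Other groups held no called gene. Of 13 further thioredoxin fold and methionine sulfoxide reductase genes, 7 were higher and the median was 0.002. Of 15 other NADPH genes tested, 10 were higher, with a median of 0.079. Of 9 tested genes of NADPH oxidases, 6 were higher, with a median of 0.065 and a range of −0.07 to 0.14. Superoxide itself was not measured. By edgeR, 0 of the thioredoxin fold genes, 3 of the NADPH genes and 0 of the NADPH oxidase genes had an unadjusted p under 0.05. Among all genes tested the share at that p was 13.5%.

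Markers of other cells were read beside these values. Among all genes tested, 1.18% were called, 13.5% had an unadjusted p under 0.05 by edgeR and 19.9% did not overlap. The plasma cell list summed to 1880 to 2010 CPM in Control and 2090 to 2230 CPM in Prmt1-null libraries without overlap (two-sided exact permutation test, p = 0.10, the smallest that 3 against 3 libraries can give). Of its 14 tested genes 11 were higher and 3 were called, and 6, all higher, had an unadjusted p under 0.05 by edgeR. The called genes were Txndc5 and Derl3, which serve protein folding and degradation in the endoplasmic reticulum, and the surface protein Ly6c2, with log2 fold changes of 0.45, 0.59 and 1.12. Of the defining markers, Sdc1 (CD138) had 54 to 103 raw counts in Control and 89 to 175 in Prmt1-null libraries (log2 fold change 0.52, adjusted p = 0.489 by edgeR). The transcription factors Xbp1 and Prdm1 both had log2 fold changes of 0.29 (adjusted p = 0.0571 and 0.384 by edgeR), Slamf7 had 0.25 (adjusted p = 0.0506 by edgeR), and Tnfrsf17 was at 0 to 4 raw counts. The antibody joining chain gene Jchain (−0.09), Ell2 (−0.12) and Fkbp11 (−0.03) had negative log2 fold changes, and Edem1 (0.00) and Mzb1 (0.08) were close to 0, all with intervals that included 0. The 18 feeder fibroblast markers summed to 43.0 to 45.6 CPM in Control and 44.0 to 54.2 CPM in Prmt1-null libraries, with 12 of 14 tested genes higher, 0 called and 2 at an unadjusted p under 0.05 by edgeR. These 2 were the matrix genes Col1a1 (log2 fold change 0.44, adjusted p = 0.173 by edgeR) and Sparc (0.64, adjusted p = 0.36), both without overlap of the groups, and Lum and Postn were at 0 in all libraries. The myeloid list summed to 8.92 to 18.4 CPM in Control and 16.1 to 16.5 CPM in Prmt1-null libraries, with 1 of 5 tested genes called, Adgre1 (log2 fold change 0.73, adjusted p = 0.0319 by edgeR). Csf1r and Itgam were detected in every library (log2 fold changes 0.33 and 0.11), and Cd14 was at 0 to 2 raw counts. S100a8 had 0, 361.7 and 35.26 normalized counts in Control and 28.35, 55.31 and 51.04 in Prmt1-null libraries, and Lyz2 had 0, 86.92 and 24.24 against 34.43, 20.28 and 12.29. Control replicate 2 was the highest library for both genes, and their intervals of the log2 fold change (−3.63 to 0.48 and −2.75 to 1.24) included 0. The sums of the T cell list were 1.19 to 3.01 CPM and those of the erythroid list 5.89 to 9.68 CPM over all libraries, with 0 genes called in either. The part of these cells in the differences of the antioxidant genes was not tested.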

How the data were processed

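RNA-seq libraries of 3 Control and 3 Prmt1-null iGB cultures, 1 per mouse, were compared. The authors used Trimmomatic 0.32 for trimming and STAR 2.3.0e for alignment to mm10, and they counted primary alignments with at most 2 locations on exons of Ensembl genes with featureCounts 1.4.4, so that the deposited values are raw counts. The libraries were stranded, and the strand setting of the counting is not given in the sources used here.

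Groups, replicate numbers and sexes were taken from the labels. Counts were analysed in R 4.3.3 with edgeR 4.0.16 (filterByExpr with a minimum count of 10, TMM, glmQLFit and glmQLFTest). Following the study's methods, 398 chromosome Y genes were excluded. Normalized counts are counts scaled to the mean effective library size. Standard errors came from the log2 fold change and the F statistic. Genes were called at an adjusted p below 0.05 if their mean normalized count exceeded 100. Positions, exon lengths and overlaps came from GENCODE M21 (GRCm38), to which 37693 genes were matched by ID and 665 by symbol, and 659 were not matched. CPM per kb used those exon lengths, which may differ from the annotation the authors counted on.

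The members and lists were chosen with earlier results of these data known. All members were accounted for, with values per library for called genes and the 3 genes with the smallest p in each branch. The second Mafg record and library values of Txn2, Txnrd3, Slc7a11, Keap1, Osgin1 and Srxn1 were added after they had been seen, as were the marker genes named and Abcc4, Bach2, Gsk3b and Mgst2. DESeq2 1.42.0, limma-voom (limma 3.58.1), other scalings, filters, thresholds and models and the omission of each library were tried as alternatives. Removal of GC content and length trends (known for 98.9% of tested genes) and the females alone were chosen after the data had been seen. The p-values of edgeR weigh the difference between 3 and 3 mice against the spread between mice, which is moderated across genes.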

Additional observations from a re-analysis of the deposited data

How the results depend on the processing

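Txnrd1 and Prdx6 were called under every alternative run, except that Prdx6 was below the limit when a fold change over 1.4 was asked for. The count of 2 called members was 7 with DESeq2 with or without a prior, 4 with no filter on low counts and 1 with a fold change over 1.4, and 2 to 5 with 1 library left out, 5 of them without Control replicate 3. The count over all genes, 216, was 720 and 716 with DESeq2 without and with a prior, 675 with no filter, 327 with GC content and length trends removed, 113 in the females alone, 87 with a fold change over 1.4, and 31 (without Prmt1-null replicate 2) to 340 (without Control replicate 3) with 1 library left out. The branch medians, as log2 fold changes, fell with DESeq2's prior to 0.115 for thioredoxin, 0.059 for NADPH supply and 0.143 for the superoxide, peroxide and quinone genes, the last of which was 0.26 with GC content and length trends removed and 0.16 in the females alone. With 1 library left out these medians ran from 0.101 to 0.292, from 0.099 to 0.141 and from 0.166 to 0.285, and that of the regulators from 0.101 to 0.182.

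Signs turned only for genes near 0 or with few reads. They were Prdx2 (−0.01 with total counts, −0.02 with GC content and length trends removed and −0.02 in the females alone), Srxn1 (−0.12 with limma-voom and −0.01 with the replicate block) and, in the females alone, Txnip (−0.03), G6pdx (−0.03), Osgin1 (−0.04) and Mafk (0.03). With 1 library left out the log2 fold changes ran from −0.05 to 0.10 for Txnip, −0.05 to 0.06 for Prdx2, −0.13 to 0.02 for Prdx4, −0.68 to 0.69 for Srxn1, −0.04 to 0.10 for Glrx3, −0.02 to 0.07 for Abcc1, −0.03 to 0.11 for G6pdx and −0.14 to 0.97 for Osgin1. The cause of these shifts was not tested.

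Same-numbered libraries come from different mice. Over genes with a mean count above 100, deviations from the group means correlated at −0.31, 0.22 and −0.34 for the numbers 1, 2 and 3, and at 0.49 for the 2 male libraries, Control replicate 1 and Prmt1-null replicate 3. With the replicate block, 2 members and 151 genes were called. With few reads, Srxn1, Me1, Gsta4 and Osgin1 had intervals of the log2 fold change too wide to show a change at this depth.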
